A study of Mus musculus with 6 samples.

Results

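The genes described here are 10 genes of the white adipocyte, the cell that stores fat as triglyceride: *Adipoq*, *Lep*, *Cfd*, *Retn*, *Plin1*, *Cidec*, *Pck1*, *Scd1*, *Fabp4* and *Pparg*. They were taken by gene symbol from the 24532 genes of an RNA-seq table of mouse gastrocnemius (GAS) muscle as a gauge of the adipocyte RNA in each piece of muscle. All 10 had 1 row each, and all 10 passed the filter on low counts that left 13801 genes for testing. The study removed *Sirt6*, a nuclear deacetylase, from skeletal muscle. It compared 3 animals labelled WT, which carried floxed *Sirt6* alleles and no Cre, with 3 animals labelled *Sirt6* KO, which carried the same floxed alleles and *Myl1-Cre*. All 6 were male C57BL/6 mice of about 20 weeks of age, and each gave 1 library. *Myl1-Cre* acts mainly in postmitotic fast muscle fibers, so adipocytes are not the cells in which it is meant to delete the gene. The floxed line is named differently in different places of the study, which describes its WT animals as littermates of the KO, and the sample labels do not give litters.

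Some background helps in reading the values. Fat cells lie between the fascicles of normal muscle and around its vessels, and a dissected muscle also carries more or less of the fat attached to its surface. An adipocyte keeps its triglyceride in a single large droplet coated with perilipin 1 and CIDEC, secretes hormones such as adiponectin and leptin into the blood, and is driven into its fate by the nuclear receptor PPARγ together with the C/EBP factors. Several of its lipid genes are not its own: *Fabp4* is also strongly expressed by capillary endothelium, *Scd1* by myofibers, and *Pparg* at low levels by both. In RNA from whole tissue, fewer adipocytes and less RNA of these genes per adipocyte cannot be told apart.

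The libraries held between 44845763 and 63016899 counts on genes. *Sirt6* itself was at 3.90, 2.93 and 3.25 TPM, a level scaled for gene length and to a fixed sum per library, in the libraries labelled WT 1, 2 and 3, and at 9.62, 8.69 and 7.75 in those labelled KO 1, 2 and 3. It was therefore higher in every library labelled KO, against the labels, by 1.48 on the log2 scale with a standard error of 0.17 (edgeR's quasi-likelihood fit with the Benjamini-Hochberg correction gave an adjusted p of 0.0113, and 0.0606 and 0.0650 without KO 1 and KO 3). Counts per gene do not separate deleted from retained exons, and every direction given below rests on the labels. The library labelled WT 3 stood apart from WT 1 and 2 in several gene groups, with a summed TPM of 544 over 9 slow fiber genes against 7864 and 6940. The defining genes of skeletal muscle were high throughout. *Acta1*, the skeletal α-actin, was at no less than 36212 TPM and *Myh4*, the fast myosin, at no less than 20494 TPM in any library. These levels match skeletal muscle, and do not show which muscle or part of it was taken.

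The sequences before the starts of 4 of these genes are given first. *Adipoq*, *Retn* and *Plin1* are shown because their levels ran closest together over the libraries, and *Lep* because it did not follow them. Each run is the 250 bases before the annotated start in RefSeq (GRCm38), read 5′ to 3′ on the gene's strand, and capitals mark matches to the C/EBP motif TTGCNNAA on either strand. *Adipoq* was read from chr16:23146286-23146535 (plus strand), *Retn* from chr8:3655520-3655769 (plus), *Plin1* from chr7:79732777-79733026 (minus) and *Lep* from chr6:29059971-29060220 (plus).
Adipoq: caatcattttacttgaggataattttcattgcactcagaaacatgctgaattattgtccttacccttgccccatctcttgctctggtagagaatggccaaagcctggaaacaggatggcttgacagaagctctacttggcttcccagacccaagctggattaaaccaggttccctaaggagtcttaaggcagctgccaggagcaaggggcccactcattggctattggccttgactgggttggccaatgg
Retn: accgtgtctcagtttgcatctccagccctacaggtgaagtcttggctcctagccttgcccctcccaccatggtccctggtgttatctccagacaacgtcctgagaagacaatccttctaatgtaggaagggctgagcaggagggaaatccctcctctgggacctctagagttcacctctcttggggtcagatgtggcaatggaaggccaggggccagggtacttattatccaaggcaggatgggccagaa
Plin1: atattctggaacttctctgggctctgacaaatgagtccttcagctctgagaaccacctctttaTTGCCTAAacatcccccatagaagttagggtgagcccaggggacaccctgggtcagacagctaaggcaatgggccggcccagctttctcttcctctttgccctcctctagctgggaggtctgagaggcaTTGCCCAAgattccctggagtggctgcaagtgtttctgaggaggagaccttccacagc
Lep: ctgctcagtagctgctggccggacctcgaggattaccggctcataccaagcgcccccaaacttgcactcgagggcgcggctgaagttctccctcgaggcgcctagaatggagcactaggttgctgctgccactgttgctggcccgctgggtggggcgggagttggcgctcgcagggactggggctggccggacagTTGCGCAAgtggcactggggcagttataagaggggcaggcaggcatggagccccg
*Plin1* held 2 matches, beginning 187 and 58 bases before the start, and *Lep* held 1, a palindrome beginning at base -55. None was found in *Adipoq* or *Retn*. RefSeq start regions of 300 bases, 50 of them after the start, were given for 8 of the 10 genes, in 11 regions. The motif occurred in 4 of these 11, against 10.8% of all 32851 such regions. They were 1 region each of *Lep*, *Plin1*, *Cidec*, which has 2, and *Pparg*, which has 3. The PPAR half-site AGGTCA was found in *Pparg* alone among the 8, in 2 of its 3 regions, and occurs in 16.3% of all regions. The doubled form that the PPAR-RXR pair prefers, AGGTCANAGGTCA, was in no region of these genes and in 0.0396% of all. A match is a run of letters and no evidence of a bound factor.

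Of the secreted proteins, *Adipoq* (NCBI gene 11450; chromosome 16, 23146536 to 23157968) encodes adiponectin, a hormone made almost exclusively by adipocytes. Its level was 15.5, 16.9 and 1.20 TPM in the libraries labelled WT 1, 2 and 3, and 7.09, 30.7 and 13.4 TPM in those labelled KO 1, 2 and 3. The lowest value of all was in WT 3 and the highest in KO 2, and the groups overlapped. The raw counts behind these levels ran from 44 in WT 3 to 1152 in KO 2, so the 25.6-fold spread between the extremes is far beyond counting error. The group means were 11.2 ± 8.70 TPM (SD, n = 3) and 17.1 ± 12.2 TPM (SD, n = 3). The log2 fold change, labelled KO minus WT, was 0.81 with a standard error of 0.84, written 0.81 ± 0.84 in the genes that follow, and a 95% interval from -1.14 to 2.77 (adjusted p = 0.519 by edgeR with Benjamini-Hochberg adjustment).

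*Cfd* (gene 11537; chromosome 10, 79890853 to 79892655) encodes complement factor D, or adipsin, a serine protease of the alternative complement pathway. It was the most abundant of the genes that are largely restricted to fat, at 73.2, 81.8 and 5.91 TPM in WT 1 to 3 and at 15.1, 179 and 84.2 TPM in the libraries labelled KO 1 to 3. Here too WT 3 was lowest, KO 1 next and KO 2 highest. The difference between the groups was 1.00 on the log2 scale (standard error 0.99, 95% interval -1.32 to 3.32, adjusted p = 0.503 by edgeR). *Retn* (gene 57264; chromosome 8, 3655770 to 3659818), which encodes resistin, an adipocyte hormone in the mouse, was at 8.98, 8.04 and 0.558 TPM in WT and at 3.70, 16.5 and 7.82 TPM in the libraries labelled KO. Its order of libraries was that of *Cfd* at the low and the high end, and its log2 fold change was 0.83 ± 0.75 (adjusted p = 0.460 by edgeR). The related *Retnla*, known from macrophages and airway epithelium as well as fat, kept between 37.2 and 86.3 TPM in all libraries and had no such trough in WT 3, at 53.3 TPM.

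*Lep* (gene 16846; chromosome 6, 29060221 to 29073876), the gene for leptin, the hormone that reports fat stores to the brain, was close to the detection limit. It had 32, 0 and 0 counts in WT 1, 2 and 3 and 45, 13 and 0 counts in the libraries labelled KO 1, 2 and 3. The highest library was thus KO 1, which was next to lowest for *Adipoq*, and 3 libraries held no read. A count of 0 allows up to 3 counts, or 0.0636 CPM, counts scaled to a common library size, in WT 2, 0.0524 in WT 3 and 0.0545 in KO 3, as far as counting error goes. In TPM the detected levels were 0.470 in WT 1, 0.492 in KO 1 and 0.122 in KO 2. With both groups holding libraries at 0, no fold change is given, and the adjusted p by edgeR was 0.810.

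**Figure D1:**
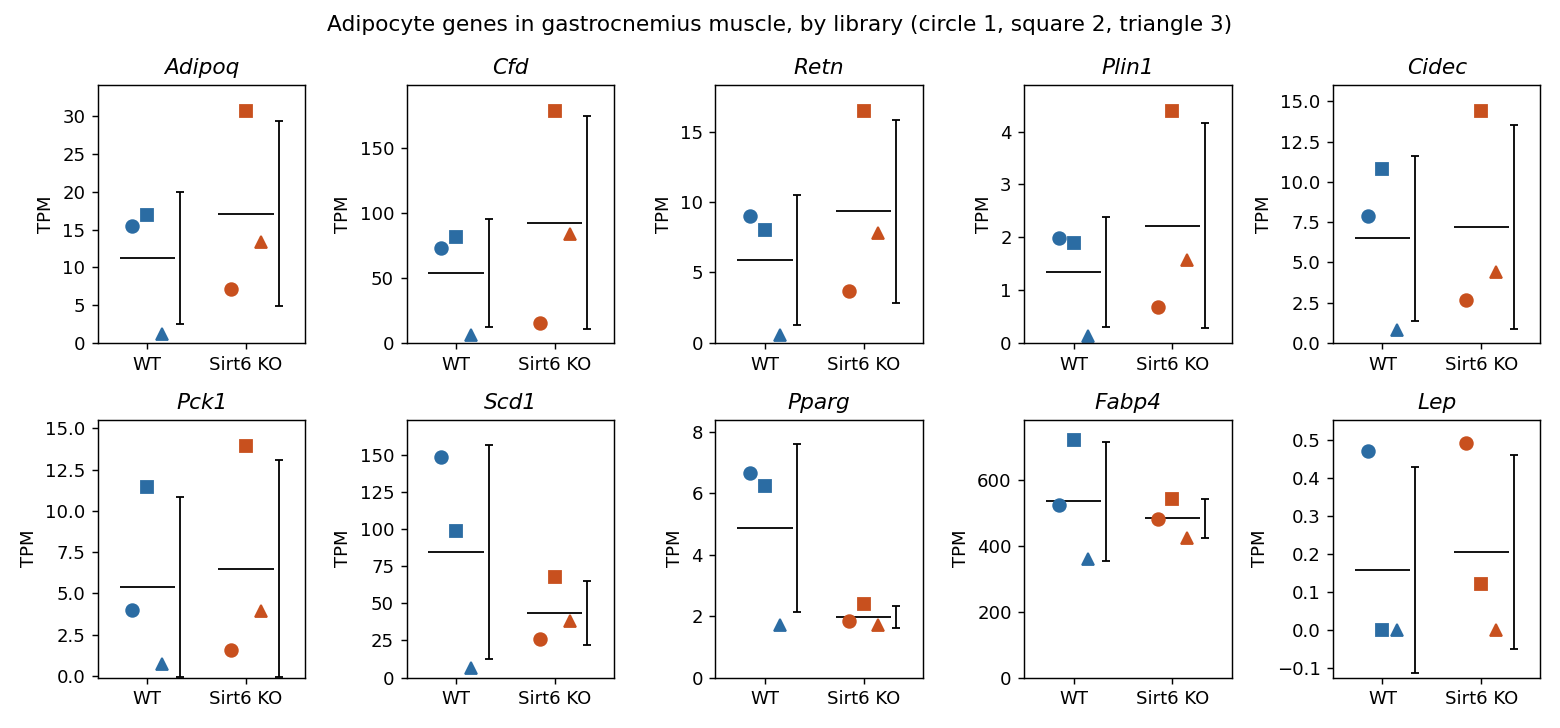
Level in TPM (vertical axis, linear, a separate scale for each gene) of the 10 adipocyte genes in the 3 libraries labelled WT (blue) and the 3 labelled Sirt6 KO (orange). Circles, squares and triangles are libraries 1, 2 and 3 of each group, horizontal lines the group means and the vertical bars beside them 1 SD on either side. In the first 6 panels the triangle of WT, at 1.20 TPM for Adipoq, is the lowest point and the square of KO, at 30.7 TPM, the highest, while Fabp4 stays between 359 and 719 TPM.

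The droplet proteins had their low and high in the same libraries. *Plin1* (gene 103968; chromosome 7, 79721164 to 79732904) encodes perilipin 1, which coats the droplet and holds back its lipases. Its level was 1.99, 1.90 and 0.140 TPM in WT 1, 2 and 3, and 0.683, 4.39 and 1.57 TPM in the libraries labelled KO. *Cidec* (gene 14311; chromosome 6, 113424634 to 113435760), whose protein fuses small droplets into large ones, was at 7.87, 10.8 and 0.788 TPM in WT and at 2.68, 14.4 and 4.41 TPM in the libraries labelled KO. WT 3 was lowest and KO 2 highest for both, with a range of 31.3-fold for *Plin1* and 18.3-fold for *Cidec*. Neither differed between the groups beyond its spread, with log2 fold changes of 0.93 ± 0.89 (adjusted p = 0.485 by edgeR) for *Plin1* and 0.35 ± 0.87 (adjusted p = 0.805) for *Cidec*.

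Other perilipins, which coat droplets in muscle fibers as well, varied less than *Plin1*. *Plin2* was at 48.5, 38.3 and 24.98 TPM in WT and at 31.5, 38.4 and 28.5 TPM in the libraries labelled KO. *Plin4*, at no less than 150 TPM in any library, was far more abundant than *Plin1*, and its log2 fold change of -0.63 did not pass the test (adjusted p = 0.114 by edgeR). *Plin2* and *Plin5* were lowest in WT 3, as *Plin1* was, and *Plin5*, at 9.30 TPM in WT 3 against 21.3 to 37.8 TPM in the other 5 libraries, had r = 0.909 with *Adipoq* (Pearson's r of log2 CPM over 6 libraries). *Cidea*, the relative of *Cidec* known from brown fat, lay between 0.353 and 2.38 TPM, and *Cideb* was listed at 0 in all 6.

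*Pck1* (gene 18534; chromosome 2, 173153073 to 173159274) encodes the cytosolic phosphoenolpyruvate carboxykinase, which in fat supplies glycerol for making triglyceride. Its level was 4.004, 11.4 and 0.717 TPM in WT 1, 2 and 3, and 1.57, 13.9 and 3.93 TPM in the libraries labelled KO. It kept the low of WT 3 and the high of KO 2, with WT 2 close to the latter, and its log2 fold change was 0.46 ± 0.99 (adjusted p = 0.768 by edgeR). The mitochondrial isozyme *Pck2* moved little, between 1.11 and 1.89 TPM.

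*Scd1* (gene 20249; chromosome 19, 44394450 to 44407709), the desaturase that makes oleate from stearate, departed from that pattern. It was at 148, 98.5 and 6.70 TPM in WT and at 25.7, 67.6 and 37.9 TPM in the libraries labelled KO, so that WT 1 and WT 2, not KO 2, were highest. WT 3 was again the lowest. The means of 84.5 ± 71.8 TPM (SD, n = 3) and 43.7 ± 21.5 TPM (SD, n = 3) gave a log2 fold change of -0.74 with a standard error of 0.85 (adjusted p = 0.569 by edgeR). Its relative *Scd2*, the main desaturase of many tissues other than liver and fat, was at 7.83, 6.78 and 5.61 TPM in WT and at 6.28, 9.73 and 9.76 TPM in the libraries labelled KO, and *Scd3* did not exceed 0.443 TPM.

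*Fabp4* (gene 11770; chromosome 3, 10204342 to 10208616) encodes the fatty acid chaperone aP2. It was by far the most abundant of the 10, at 525, 719 and 359 TPM in WT and at 482, 543 and 425 TPM in the libraries labelled KO. Its highest value was 2.00 times its lowest, against 18.3 to 31.3 times for *Adipoq*, *Cfd*, *Retn*, *Plin1*, *Cidec*, *Pck1* and *Scd1*. This was also the tightest comparison, with a log2 fold change of -0.01 ± 0.21 and a 95% interval from -0.51 to 0.48. Of the 138 tested genes of 12 lists, the one whose log2 CPM followed *Fabp4* most closely was *Gpihbp1* (Pearson's r = 0.918 over 6 libraries), the capillary anchor of lipoprotein lipase. The 12 endothelial markers summed to 363, 417 and 178 TPM in WT and to 253, 242 and 243 TPM in the libraries labelled KO, and their part in the *Fabp4* level was not tested. *Fabp3*, the chaperone of muscle itself, ranged from 352 TPM in WT 3 to 1976 TPM in WT 2.

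*Pparg* (gene 19016; chromosome 6, 115360879 to 115490404), the nuclear receptor that drives adipocyte differentiation, was at 6.67, 6.25 and 1.72 TPM in WT 1, 2 and 3, and at 1.84, 2.40 and 1.71 TPM in the libraries labelled KO. WT 1 and WT 2 stood above the other 4 libraries, and WT 3 lay among those labelled KO. With means of 4.88 ± 2.74 TPM (SD, n = 3) and 1.98 ± 0.364 TPM (SD, n = 3), its log2 fold change was -1.10 (standard error 0.42, 95% interval -2.07 to -0.13). The unadjusted p was 0.0315 and the adjusted p 0.108 by edgeR, and the two-sided exact permutation test gave p = 0.2, where 0.1 is the smallest that 3 against 3 allow. The call turned on the method and on 1 library: DESeq2 gave an adjusted p of 0.0419, and edgeR gave 0.00634 without WT 3. The level of *Pparg* did not follow that of its companions of the fat cell, since KO 2, highest for *Adipoq*, had 2.40 TPM.

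The other PPAR genes, which serve fatty acid oxidation in muscle, were more abundant than *Pparg*. *Ppard* was at 25.9, 30.4 and 20.8 TPM in WT and at 15.03, 15.5 and 15.8 TPM in the libraries labelled KO. It was lower in every library labelled KO, and passed the test with a log2 fold change of -0.61 ± 0.12 (adjusted p = 0.0225 by edgeR), although the adjusted p rose to between 0.0593 and 0.0898 without any 1 library other than WT 3. *Ppara* was at 36.2, 51.8 and 6.25 TPM in WT and at 1.94, 8.80 and 4.08 TPM in the libraries labelled KO, with an overlap through WT 3 and KO 2 and an adjusted p of 0.0680 by edgeR for a log2 fold change of -2.48. DESeq2 gave 0.0321 for *Ppara*, and edgeR 0.0155 without WT 3.

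None of the 10 adipocyte genes passed an adjusted p of 0.05 between the groups by edgeR, where 16.2% of the 13801 genes tested did, 7.85% of them higher and 8.39% lower in the libraries labelled KO. By the study's own kind of threshold, more than 2-fold at an unadjusted p under 0.05, *Pparg* passed as lower, as did 4.69% of all genes, and no adipocyte gene passed as higher, where 3.14% of all did. At an unadjusted p under 0.05 alone, *Pparg* was again the 1 gene of the 10, against 35.3% of all tested. The normalized CPM of the groups overlapped for each of the 10 genes, while they did not for 40.0% of all tested, 19.6% with the libraries labelled KO below. A mean higher in the libraries labelled KO was found for 7 of the 10, *Adipoq*, *Lep*, *Cfd*, *Retn*, *Plin1*, *Cidec* and *Pck1*, and a lower one for *Scd1*, *Fabp4* and *Pparg*. The intervals of the 95% level span more than 2-fold in each direction for *Adipoq*, *Cfd*, *Plin1*, *Cidec*, *Scd1* and *Pck1*, so a difference of that size in either direction lies within the error of 3 animals a group.

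**Figure D2:**
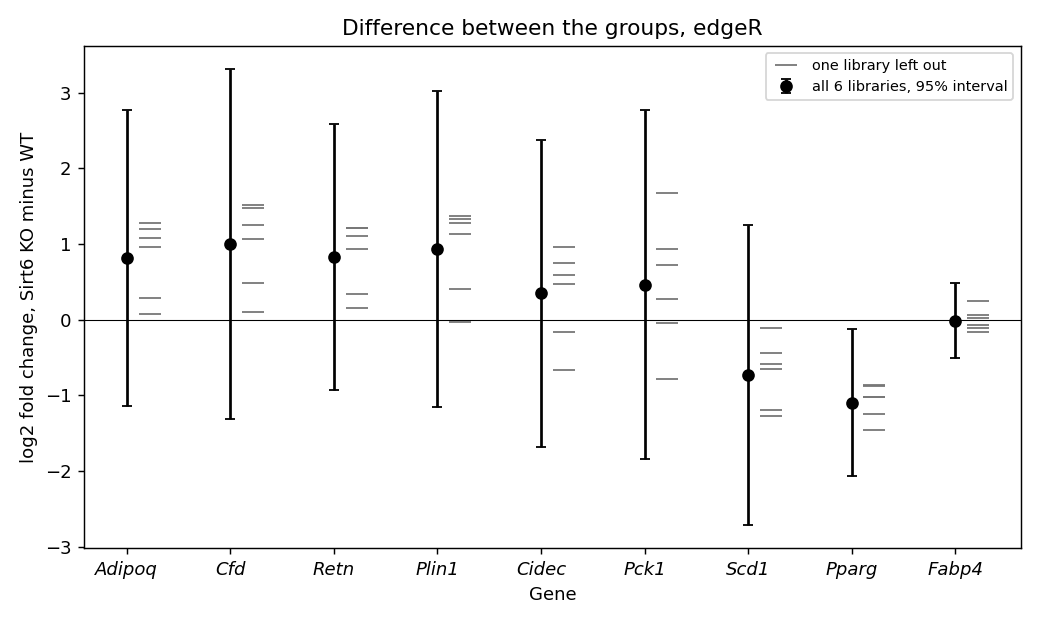
Log2 fold change, libraries labelled Sirt6 KO minus WT (vertical axis), for 9 adipocyte genes, with the 95% interval from edgeR as bars around the black point and grey dashes for the value with 1 library left out each time. Lep is left out since 3 of its libraries held no read. The interval of Pparg, -2.07 to -0.13, lies below 0, those of the other 8 genes include it, and that of Fabp4 is the narrowest.

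The sign of several differences rested on 2 libraries. Without KO 2 the log2 fold change of *Adipoq* fell to 0.08, and without WT 3 it was 0.29. *Cidec* turned from 0.35 to -0.67 without KO 2 and to -0.17 without WT 3, and *Pck1* from 0.46 to -0.78 and -0.05. *Plin1* was at -0.03 without KO 2. *Scd1* and *Pparg* stayed below 0 whichever library was left out, between -1.27 and -0.11 for *Scd1* and between -1.46 and -0.86 for *Pparg*.

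The spread of most of these genes between animals was wide beside the median of all genes tested, though several slow fiber genes spread more. The log2 CPM of *Adipoq* ranged over 4.57 units, a range at least as wide as that of 99.2% of the genes tested, whose median range was 0.83. *Cfd*, *Retn*, *Plin1*, *Cidec*, *Pck1* and *Scd1* spanned between 3.81 and 4.85 units. *Pparg* spanned 1.63 and *Fabp4* 0.78, which is about the median. The slow fiber genes *Myh7* and *Tnnc1* spanned 5.71 and 5.96 units, while *Myh2* of the same list spanned 2.06. The biological coefficient of variation, edgeR's estimate of the scatter between replicates, was 69.1% for *Adipoq* and 20.9% for *Fabp4*, with a median of 19.5% over the genes tested. It was 93.1% for *Myh7*.

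The spread was shared by 6 of the genes. In *Adipoq*, *Cfd*, *Retn*, *Plin1*, *Cidec* and *Pck1*, the library labelled WT 3 was lowest, KO 1 next to lowest and KO 2 highest in every case. The 15 correlations among these 6 genes lay between 0.906 and 0.998 (Pearson's r of log2 CPM over 6 libraries, as a description). The points share their libraries and the scaling of each. These 6 genes were set apart with their values known, so the range does not test whether adipocyte genes vary together. Correlations of the 6 with *Lep*, *Scd1*, *Fabp4* and *Pparg* ran from -0.034 (*Lep* with *Pck1*) to 0.907 (*Scd1* with *Cidec*). Summed with *Lep*, the 6 genes, 7 in all, came to 112, 131 and 9.32 TPM in WT 1, 2 and 3. In the libraries labelled KO these 7 came to 31.3, 259 and 115 TPM. The difference between animals of 1 group was thus 14.1-fold within WT and 8.26-fold among those labelled KO, while the group means were 84.1 ± 65.4 TPM (SD, n = 3) and 135 ± 115 TPM (SD, n = 3). *Cfd* was the largest part of the sum of 7 in every library, at 81.8 of 131 TPM in WT 2 and 179 of 259 TPM in KO 2. These 7 genes took between 0.000522% and 0.0139% of a library's counts. With *Scd1*, *Fabp4* and *Pparg* added, the sums were 792, 955 and 377 TPM in WT and 541, 872 and 580 TPM in the libraries labelled KO, most of it *Fabp4*.

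Dividing each gene by *Adipoq* within its own library takes out the level shared by the genes that follow *Adipoq*. To genes that do not follow it, the division adds the spread of *Adipoq*. For *Pparg* the ratio spread 18.4-fold, against 3.89-fold for its TPM. *Retn* kept to a narrow band of 0.579, 0.475 and 0.465 times the TPM of *Adipoq* in WT and 0.522, 0.537 and 0.583 times in the libraries labelled KO, although *Adipoq* itself varied 25.6-fold. *Plin1* was nearly as steady, at 0.128, 0.112 and 0.117 in WT and 0.0964, 0.143 and 0.117 in the libraries labelled KO. Both genes thus kept a nearly constant proportion to *Adipoq* in libraries with much and with little of it. *Cfd* stood between 4.72 and 4.92 for WT, and was 2.13, 5.82 and 6.28 in the libraries labelled KO, where KO 1 was short of *Cfd* for its *Adipoq*.

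In 3 genes the ratio was lower in every library labelled KO than in every WT library. *Scd1* was at 9.56, 5.82 and 5.58 times *Adipoq* in WT and at 3.63, 2.2 and 2.83 times in the libraries labelled KO, with means of 6.99 ± 2.23 (SD, n = 3) and 2.89 ± 0.717 (SD, n = 3). *Cidec* was at 0.508, 0.638 and 0.657 in WT and at 0.379, 0.470 and 0.329 in the libraries labelled KO. *Pparg* was at 0.431, 0.369 and 1.44 in WT and at 0.259, 0.0781 and 0.128 in the libraries labelled KO. For each of the 3 the two-sided exact permutation test gave p = 0.1, the smallest possible, or 0.267 after Benjamini-Hochberg adjustment over the 8 ratios compared. The same lack of overlap was found for 7.93% of all genes tested when divided by *Adipoq* in CPM, nearly all of them, 7.83%, with the libraries labelled KO below, and all these ratios share the level of *Adipoq*. *Pck1* overlapped, at 0.258, 0.675 and 0.597 in WT and 0.221, 0.454 and 0.293 in the libraries labelled KO. *Fabp4* ran from 17.7 times *Adipoq* in KO 2 to 299 times in WT 3, a 16.9-fold spread.

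**Figure D3:**
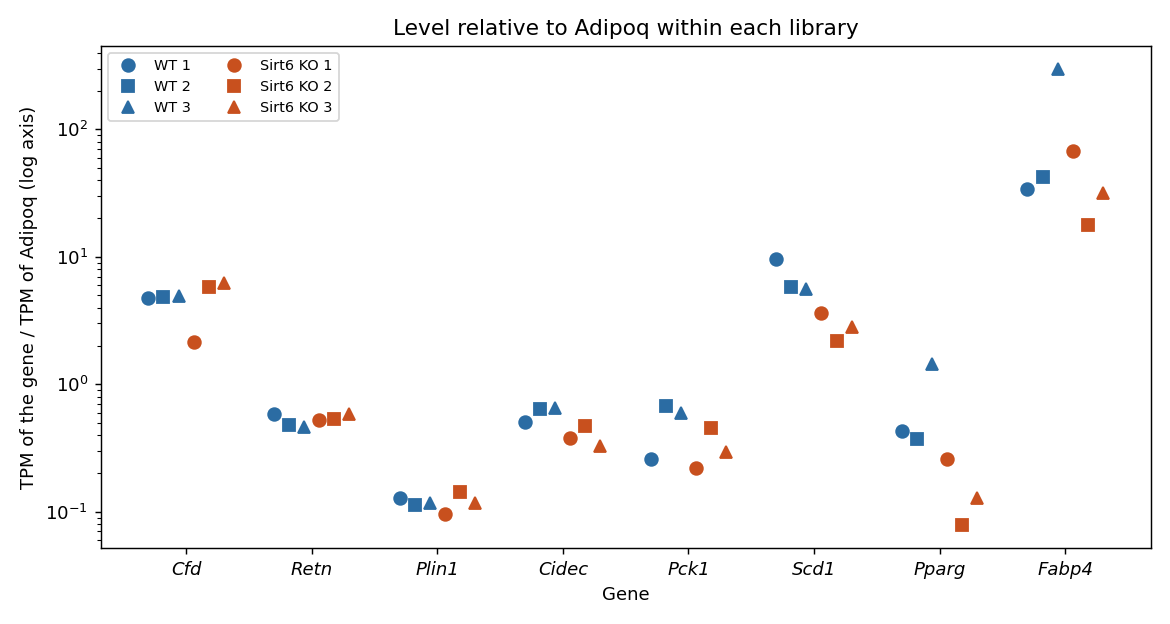
TPM of 8 adipocyte genes divided by the TPM of Adipoq in the same library (vertical axis, log scale), for the libraries labelled WT (blue) and Sirt6 KO (orange), with circles, squares and triangles for libraries 1, 2 and 3. Retn (0.465 to 0.583) and Plin1 (0.0964 to 0.143) lie in tight bands, the orange points of Cidec, Scd1 and Pparg lie below all blue ones, and Fabp4 reaches 299 in WT 3.

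Over all genes tested, those whose log2 CPM ran closest to *Adipoq* across the 6 libraries included *Plin1* (r = 0.994) and *Retn* (r = 0.993) at places 3 and 4 of 13801, counting *Adipoq* itself as the first. *Cidec* took place 29, *Cfd* 52 and *Pck1* 152. *Scd1* followed at place 277 (r = 0.875), *Fabp4* at 1000 (r = 0.703), *Pparg* at 2961 (r = 0.396) and *Lep* at 4070 (r = 0.266). The 10 nearest genes that are not among the 10 adipocyte genes were *Erbb3*, *Ifi27l2a*, *Appbp2*, *Slc7a10*, *Acp5*, *Mrap*, *Slc27a1*, *Slc25a1*, *S100a1* and *Lgals12*, with r from 0.995 for *Erbb3* to 0.977 for *Lgals12*. Among them are known adipocyte genes: *Mrap*, an accessory protein of melanocortin receptors, *Slc7a10*, an amino acid carrier, and *Lgals12*, a galectin of the lipid droplet. *Mrap* was at 1.51, 1.35 and 0 TPM in WT and at 0.231, 3.72 and 0.807 TPM in the libraries labelled KO. *Slc27a1*, a fatty acid transporter of muscle and fat, was at 49.8, 58.2 and 18.8 TPM in WT and at 34.5, 54.0 and 40.9 TPM in the libraries labelled KO. No gene of these 10 passed the test between the groups, and all overlapped. With 6 libraries, 2 of them extreme, high values of r are common: without the 2 libraries farthest from the median of *Adipoq*, r ranged from 0.595 for *S100a1* to 0.986 for *Appbp2*. Of the 3 known adipocyte genes, *Mrap* was then at 0.954, *Slc7a10* at 0.799 and *Lgals12* at 0.791.

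Beyond the 10, a list of 34 further genes of white adipocytes held 31 that were tested. None passed an adjusted p of 0.05 in either direction by edgeR, and the median log2 fold change was 0.07 against -0.02 over all genes tested. Of these, 7 had r above 0.9 with *Adipoq* (22.6%, against 1.28% of all genes tested): *Slc7a10*, *Mrap*, *Tusc5*, *Nnat*, *Rbp4*, *Thrsp* and *Acvr1c*. The most abundant of the list are genes that myofibers use as well. *Gpd1*, the glycerol phosphate dehydrogenase, was at no less than 454 TPM in any library, and *Slc2a4*, the insulin-responsive glucose transporter, at no less than 347 TPM. *Lpl*, the lipoprotein lipase that frees fatty acids at the capillary wall, was at 953, 965 and 227 TPM in WT and at 115, 299 and 131 TPM in the libraries labelled KO. It followed the *Pparg* pattern of WT 1 and WT 2 above the rest, with an overlap through WT 3 and a log2 fold change of -1.80 ± 0.56 (adjusted p = 0.0663 by edgeR). The adjusted p of *Lpl* was 0.0273 by DESeq2 and 0.0135 by edgeR without WT 3. *Dgat2*, which makes triglyceride, was at 65.0, 92.6 and 6.57 TPM in WT and at 6.87, 23.5 and 10.3 TPM in the libraries labelled KO (log2 fold change -1.82, standard error 0.83, adjusted p = 0.161 by edgeR).

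Several genes of the list for brown and beige fat were at or near 0. *Ucp1*, the uncoupling protein that defines those cells, was listed at 0 TPM in 5 libraries and at 0.112 TPM in KO 1, and *Elovl3* was listed at 0 in all 6. *Dio2*, *Cidea* and *Prdm16* were low but present in every library, at up to 2.14, 2.38 and 1.05 TPM. The members of that list that were high, *Fabp3* and *Cox8b*, are also muscle genes. Of its 10 genes 5 were tested and none was called by edgeR, with a median log2 fold change of -0.87.

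The lipogenesis list, enzymes and factors that make fatty acids, had 14 genes tested and none called, with a median log2 fold change of 0.09. *Me1*, malic enzyme and the most abundant of them, ran opposite to *Adipoq* (r = -0.989), at 169, 153 and 231 TPM in WT and 186, 122 and 146 TPM in the libraries labelled KO. In a list of 12 PPAR targets and fasting lipid genes 2 passed, both higher in the libraries labelled KO. *Angptl4*, a secreted inhibitor of lipoprotein lipase made in fat, muscle and liver, was at 10.01, 11.9 and 10.5 TPM in WT and at 51.4, 36.8 and 49.1 TPM in the libraries labelled KO. Its groups lay far apart, with a log2 fold change of 2.18 ± 0.17 (adjusted p = 0.00873 by edgeR), and WT 3 and KO 2 did not stand out as they did for *Adipoq*. *Cpt1a*, which admits fatty acids to mitochondria, had a log2 fold change of 1.12 ± 0.18 (adjusted p = 0.0143 by edgeR), with adjusted p up to 0.0723 when 1 library was left out. *Pdk4*, the most abundant of this list, was at 2298, 3796 and 2809 TPM in WT and at 1563, 2020 and 1292 TPM in the libraries labelled KO (adjusted p = 0.0935 by edgeR).

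Among 10 tested genes of preadipocytes and fibro-adipogenic progenitors, the cells from which fat in muscle can arise, *Ly6a* passed as lower. It was at 190, 199 and 99.5 TPM in WT and at 83.6, 91.5 and 72.7 TPM in the libraries labelled KO (log2 fold change -0.83, standard error 0.20, adjusted p = 0.0347 by edgeR), and the call was lost, with an adjusted p up to 0.130, without any 1 library other than WT 3. *Ly6a* is also an endothelial gene. *Pdgfra*, the receptor that defines those progenitors, was at 13.0, 8.50 and 5.27 TPM in WT and at 4.98, 7.30 and 7.92 TPM in the libraries labelled KO, and did not pass (adjusted p = 0.560). The median log2 fold change of the 10 was -0.32, with 8 of them below 0. None of the 10 had r above 0.9 with *Adipoq*.

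Markers of other cells moved with some of the adipocyte genes. All 9 slow fiber genes had their low in WT 3, as *Adipoq* did, and their sums were 7864, 6940 and 544 TPM in WT and 888, 3947 and 1146 TPM in the libraries labelled KO. Their median r with *Adipoq* was 0.809, the highest of the 12 lists and above the 0.574 of the other white adipocyte genes, with *Tnni1* at 0.888 and *Myh7* at 0.866, although none exceeded 0.9. *Scd1* ran with them more closely: of the 138 list genes its nearest were *Myh7* (r = 0.987), the slow myosin heavy chain, *Tnnc1* (0.987) and *Tnni1* (0.984). *Adipoq* parted from them in KO 3, where it was at 13.4 TPM, near the 15.5 TPM of WT 1, while *Myh7* was at 53.3 TPM in KO 3 and 451 TPM in WT 1. In KO 2 as well, *Adipoq* was above WT 1, at 30.7 TPM, while *Myh7* was below it, at 237 TPM. *Myh2*, the oxidative fast myosin and the most abundant of that list, was at 1473, 1937 and 399 TPM in WT and at 452, 882 and 512 TPM in the libraries labelled KO. None of the 9 slow fiber genes was called by edgeR, and their median log2 fold change was -1.12. *Pparg* had its nearest list genes in *Pmp22* (r = 0.984), a myelin gene that other cells also express, *Tek* (0.983) and *Pecam1* (0.980) of endothelium, and the fast myosin *Myh1* (0.980). The part of slow fibers, endothelium or nerve in the levels of *Scd1* and *Pparg* was not tested.

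The remaining lists also differed between libraries. The 5 tested erythroid genes, none of them called, summed with *Slc4a1* to 1020, 998 and 122 TPM in WT and to 351, 506 and 240 TPM in the libraries labelled KO, with the same low in WT 3. The log2 fold changes of the 5 were all below 0, with a median of -0.82. *Hbb-bs*, a β-globin and the most abundant of them, was at 69.7 TPM in WT 3 and at 497 and 441 TPM in WT 1 and 2. The 10 Schwann cell markers summed to 64.8, 82.5 and 25.3 TPM in WT and to 26.6, 37.0 and 34.7 TPM in the libraries labelled KO. Their median log2 fold change was -0.32. No gene was called among 12 endothelial, 10 macrophage, 8 fibroblast and 12 fast fiber and general muscle genes, with median log2 fold changes of -0.15, -0.02, 0.16 and 0.40. The most abundant macrophage marker, the complement gene *C1qa*, lay between 13.96 and 36.1 TPM with its high in WT 1 (the list's sum was lowest in WT 3, at 51.4 TPM), and *Gsn*, gelsolin, the most abundant of the fibroblast list, between 382 and 676 TPM. The fast fiber and general muscle genes summed to between 231520 and 315204 TPM, a far narrower range than that of the adipocyte genes. The part of blood, nerve or other cells in the low adipocyte levels of WT 3 was not tested.

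**Figure D4:**
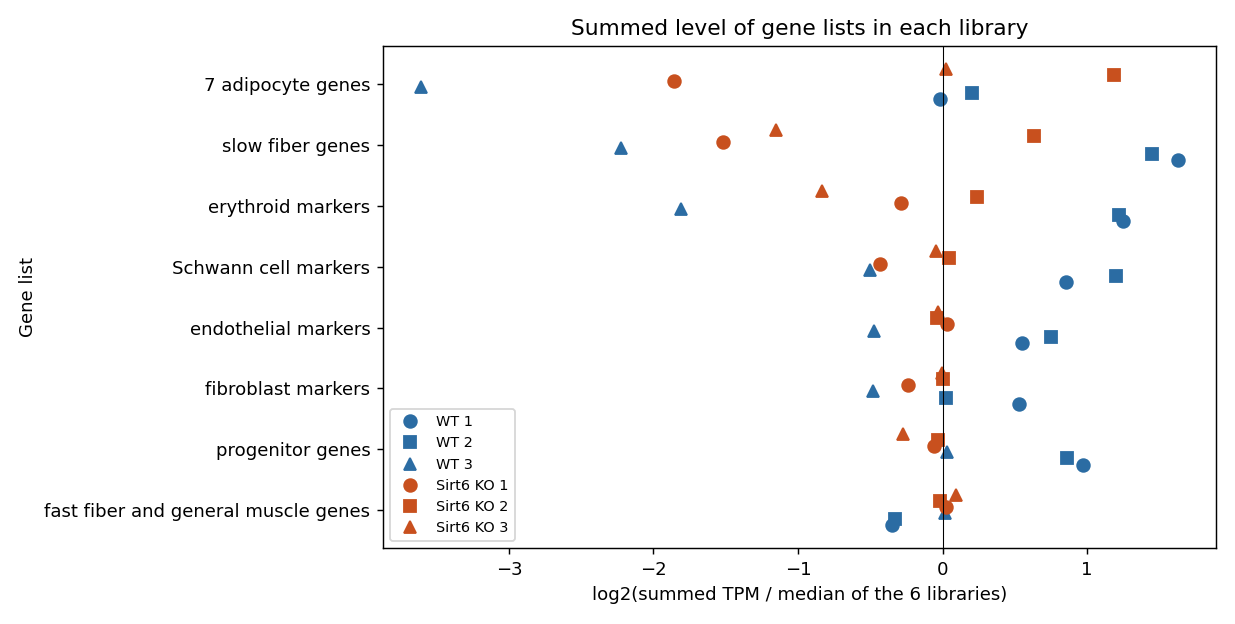
Summed TPM of 7 adipocyte genes (all but Scd1, Fabp4 and Pparg) and of 7 other gene lists in each library, as the log2 ratio to the median of the 6 libraries (horizontal axis), with libraries labelled WT in blue and Sirt6 KO in orange. Of the sums plotted, that of these 7 adipocyte genes spreads most, from 9.32 TPM in WT 3 to 259 TPM in KO 2, and that of the slow fiber genes next. The 7 genes were chosen with their values known, and the sum of all 10 spreads only 2.53-fold. Among single genes, *Myh7* of the slow fiber list spreads 65.1-fold, against 31.3-fold for *Plin1*. Of the 7 other lists plotted, WT 3 is the lowest library for slow fiber, erythroid, Schwann cell, endothelial and fibroblast genes.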

How the data were processed

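Each animal's GAS muscle gave 1 library of paired-end reads, 100 bp long. The read counts that the authors deposited are whole numbers per gene from StringTie 2.1.3b, per the submitters' processing notes, which also name HISAT2 2.1.0 and Bowtie2 2.3.4.1 on mm10, whereas the study's reporting summary names STAR. The deposited FPKM values account for gene length and for library size, and the deposited TPM values add up to a fixed sum per library. Library kits are named differently in the labels, which give a stranded one, and the methods, and strand use in counting is not given in the sources used here. Genes with a near-identical copy can share reads.

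Groups and replicate numbers came from the sample labels. Counts were tested across the whole table with edgeR 4.0.16 in R 4.3.3 (filterByExpr, TMM, quasi-likelihood, group as the single factor, Benjamini-Hochberg at 0.05), which leaves 13801 genes, and CPM are TMM-normalized. Correlations are Pearson's r of log2 CPM with a prior count of 2. Permutation tests were two-sided and exact, on log2(CPM + 0.5) for levels and on the log2 of the TPM ratio for ratios to *Adipoq*. Simulated data with 198 of 13600 genes changed by 2 on the log2 scale gave 99% recovered and 4.85% false among calls. Every simulated gene had the common biological coefficient of variation of 24.1%, far below the 69.1% of *Adipoq*. The recovery for genes as scattered as *Adipoq* was therefore not measured. Alternatives were DESeq2 1.42.0, its size factors, 3 other filters on low values, a block for the replicate number, limma 3.58.1 after quantile normalization of log2(FPKM + 1) or of log2(FPKM + 0.1), removal of a lowess trend over GC content (span 0.3, GC known for 96.2% of tested genes from GENCODE M21), and leaving out each library. Start regions and coordinates are from RefSeq on GRCm38.p6 (mm10), and each motif was searched on both strands. *Fabp4* and *Scd1* had no start region in that table.

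The genes named were the 10 adipocyte genes, *Sirt6*, the called genes and the most abundant gene of each list, the 10 genes nearest to *Adipoq*, and paralogs. The result of 1 gene of the lists is not reported here. *Lpl*, *Dgat2*, *Pdgfra*, *Ucp1*, *Elovl3*, *Dio2*, *Prdm16*, *Slc2a4*, *Cox8b* and the genes nearest to *Fabp4*, *Scd1* and *Pparg* were named after their values were seen. The adipocyte genes and all lists were chosen with earlier results of these data known. Intervals cover 3 animals per group, and floors cover counting error only.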

Additional observations from a re-analysis of the deposited data

How the results depend on the processing

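No direction that passed its test was turned by any alternative run. Of the 10 adipocyte genes, none was called higher by any alternative that tested it, with each library left out included (0 to 0). Called lower at an adjusted p under 0.05 was 1, *Pparg*, by DESeq2, against 0 by edgeR, and 0 to 1 with a library left out, the 1 being *Pparg* without WT 3. Past 2-fold with an unadjusted p under 0.05, the count higher was 0 to 0 with a library left out, and the count lower went from 1 to 0 by limma at either pseudocount and with the replicate number as a block, and ranged from 0 to 2 with a library left out. Over all alternatives the log2 fold change of *Adipoq* lay between 0.08 and 1.27 with an adjusted p of 0.390 or more, that of *Cfd* between 0.10 and 1.51, and that of *Fabp4* between -0.17 and 0.25.

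Over all genes, the number called higher at an adjusted p under 0.05 was 1084, and became 1746 by DESeq2, 468 with the GC trend removed and 241 with the GC trend removed and the block, with 6 to 2363 when a library was left out. The number lower was 1158, and became 1820, 499 and 326 in the same order, with 2 to 2219 when a library was left out. The fewest came without KO 1 and the most without WT 3. Past 2-fold, the number higher went from 434 to 273 with FPKM above 1 in a library and to 113 by limma on log2(FPKM + 1), with 358 to 638 when a library was left out, and the number lower from 647 to 429, to 173 and, by limma on log2(FPKM + 0.1), to 332, with 472 to 1062 when a library was left out. Of the list genes, 2 were called higher, against 7 by DESeq2 and 1 with the GC trend removed and the block, and 1 to 12 when a library was left out. Lower were 2, against 13 by DESeq2, 1 with no filter, 0 by limma at either pseudocount, 5 with the block and 0 with the GC trend removed, and 0 to 28 when a library was left out. The call of *Ly6a* was also lost with the GC trend removed (adjusted p = 0.0551 by edgeR), and that of *Cpt1a* with the GC trend removed and the block (0.0525), while *Lpl* passed with the block (0.0493). Where these counts moved the cause was not tested, beyond the fewer genes or libraries that some alternatives keep.

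The deviations of same-numbered libraries from their group means correlated at -0.106, 0.260 and 0.161. Those of differently numbered libraries correlated at between -0.34 and 0.21. With 3 libraries a group, these values cannot decide whether the replicate numbers pair the samples. With the replicate block, 904 genes were called higher and 1018 lower, no adipocyte gene was called, and the log2 fold change was 1.07 for *Adipoq* and -0.97 for *Pparg* (adjusted p = 0.114 by edgeR).

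*Lep* rested on 90 counts in all, and its level below 3 counts per library could not be seen. *Plin1* and *Lep* dropped out where 10 counts were required in every library. *Lep* also dropped out where FPKM above 1 in a library was required, which holds for both limma runs. It was thus tested in 12 alternatives, against 16 for *Adipoq*.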
